A study of Mus musculus with 3 samples.

Results

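Connexins and pannexins are the channel proteins through which brain cells exchange small molecules with each other or with the extracellular space. The 9 genes described here are the connexin genes Gja1, Gjb6, Gjb2, Gjb1, Gjc1, Gjc3 and Gjd2 and the pannexin genes Panx1 and Panx2, taken by gene symbol from a table of 39377 genes, in which all 9 were found. Total RNA was sequenced from whole hippocampus, a tissue of mixed cell types, of wild-type (WT) C57BL/6 mice at postnatal day 14. The 3 samples form 1 group, here called libraries 1, 2 and 3, without a second genotype or treatment. Nothing in the labels ties each library to an animal of its own, so the p-values measure no more than the spread from library to library, part of which may be technical. With 1 group, the comparisons were between genes inside the same libraries.

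Connexins assemble as hexamers into hemichannels. Hemichannels of neighbouring cells dock into gap junctions, through which ions, metabolites and second messengers pass. In the hippocampus, astrocytes are coupled mainly by the products of Gja1 and Gjb6, oligodendrocytes use a different set of connexins that pairs with the astrocyte ones, and Gjd2 forms the electrical synapses of interneurons. Pannexins are related in membrane topology but not in sequence, and mostly work as single-membrane channels, of which pannexin 1 is known for the release of ATP. Which cells expressed each gene was not measured in these libraries, and in bulk tissue fewer cells of a type and less RNA per cell cannot be told apart.

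Levels are given in FPKM (fragments per kilobase of transcript, scaled to the mapped fragments of the library), a unit that corrects for length, and the error after each mean is the SD over n = 3 libraries. From the step size of low FPKM values, depth was estimated as about 3710000, 4160000 and 5970000 fragments in libraries 1, 2 and 3. A gene with a 2 kb transcript and 3 fragments would then stand at 0.465, 0.410 and 0.289 FPKM. Astrocyte, neuron, oligodendrocyte, microglia and vascular markers were all detected, with 8 of 8 astrocyte, 8 of 8 neuron and 8 of 8 oligodendrocyte markers above 0 in every library. Libraries were alike in most marker lists, but the 5 choroid plexus markers summed to 398 FPKM in library 1 against 1084 and 1311 in libraries 2 and 3.

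Gjb2 and Gjb6 are neighbours in the genome, so the sequences upstream of their starts are shown first, together with that of Gja1, the most abundant member. Gjb2 spans positions 57098602 to 57104702 of chromosome 14 on the minus strand and Gjb6 positions 57123301 to 57133611 on the same strand (GRCm38), with 18598 bases between them. Gja1 lies on the plus strand of chromosome 10 from 56377300 to 56390419. The windows are the 250 bases before each RefSeq start in GRCm38.p6, written 5′ to 3′ on the strand of the gene, at chr10:56377050-56377299 for Gja1, chr14:57133612-57133861 for Gjb6 and chr14:57104703-57104952 for Gjb2. Capitals mark each CpG (a C followed by a G).
Gja1: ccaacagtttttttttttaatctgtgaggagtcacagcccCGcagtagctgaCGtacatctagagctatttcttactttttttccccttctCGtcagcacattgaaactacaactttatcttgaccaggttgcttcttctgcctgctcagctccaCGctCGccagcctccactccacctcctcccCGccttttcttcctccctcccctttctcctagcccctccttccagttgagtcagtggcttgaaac
Gjb6: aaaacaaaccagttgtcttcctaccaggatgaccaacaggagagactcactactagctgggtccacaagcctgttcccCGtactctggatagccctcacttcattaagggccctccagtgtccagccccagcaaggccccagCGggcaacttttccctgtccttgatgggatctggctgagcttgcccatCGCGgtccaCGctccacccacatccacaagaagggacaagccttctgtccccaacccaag
Gjb2: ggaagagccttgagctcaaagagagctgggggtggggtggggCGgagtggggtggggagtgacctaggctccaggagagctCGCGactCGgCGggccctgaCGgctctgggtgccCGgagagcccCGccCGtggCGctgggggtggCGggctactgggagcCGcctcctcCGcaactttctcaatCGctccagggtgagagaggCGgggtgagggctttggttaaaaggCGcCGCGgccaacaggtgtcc

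The Gjb6 window held 5 CpG and the Gja1 window 6, close to the median of 6 over the 32851 promoter windows of the same length, and the Gjb2 window held 18, more than 78.3% of windows. Of the 9 members, 7 had entries in the table of RefSeq promoters, with 10 windows in all; Gjc1 and Panx2 did not. The CpG count was 33 for Gjd2, 17 for Panx1 and 3 for Gjc3, and between 1 and 10 over the 4 starts of Gjb1. The Gjd2 window, at chr2:114013620-114013869, lies inside the annotated span of that gene, which reaches 114014378. Except for the Gjb1 start with 10 CpG, the bases after the Gjb1 starts were not found in the first part of an annotated Gjb1 transcript (GENCODE M21). The GC box GGGCGG, searched on both strands, was found for Gjb2, for Gjd2 and for 1 start of Gjb1, and is present in 32.7% of all windows. TATAAA was found in the same window of Gjb1 only (12.4% of all windows), and TGANTCA, the letters of an AP-1 site, in that of Gja1 only (6.75% of all windows). These are matches of letters, which do not show that a factor binds there.

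The family was carried by a small number of genes. Gja1 made up 49.6% ± 1.84 of the summed FPKM of the 23 connexin and pannexin genes in the table (SD, n = 3), Panx2 20.9% ± 2.56 and Gjb6 16.4% ± 3.24. The 9 members together held 97.2% ± 0.525, and the astrocyte connexin genes Gja1 and Gjb6 together 66.1% ± 1.59. The summed level of the family was 302, 311 and 327 FPKM in libraries 1, 2 and 3.

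**Figure D1:**
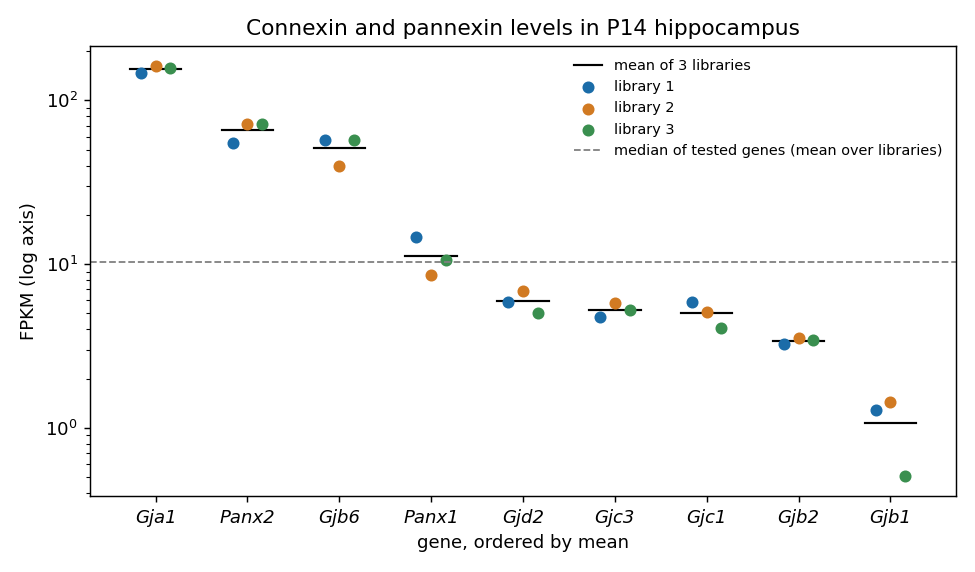
FPKM (log axis) of the 9 members in each of the 3 libraries (coloured points), with the mean over libraries (black bar) and the median of all tested genes (dashed line, 10.3 FPKM). Gja1, Panx2 and Gjb6 stand above the dashed line in all 3 libraries, Panx1 lies around it, and the other 5 members lie under it.

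To place each member among all genes, log2(FPKM + 1) of each gene was compared with that of the median gene of the same library, over the 13337 genes whose mean reached 1 FPKM, a filter that all 9 members passed. A call asked for a difference beyond 2-fold, because FPKM of different genes also differ through GC content and mappability (limma's treat test, two-sided, Benjamini-Hochberg adjusted over all genes). Of the 9 members, 3 were called higher than the median gene and 2 lower, and 4 were not called. Over all genes, 26.0% were called higher and 22.3% lower, so the 3 of 9 and 2 of 9 lie near the background. The median difference over the members was -0.72 log2 units.

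Gja1 encodes connexin 43, which builds most astrocyte gap junctions and also forms hemichannels. It stood at 147, 161 and 158 FPKM in libraries 1, 2 and 3, with a mean of 156 ± 7.31 FPKM. The libraries lay within 1.09-fold of each other, and the gene ranked 648 by mean of the 19046 genes detected in any library. It was 3.79 log2 units above the median gene (SE 0.0901, adjusted p = 9.60e-06, higher in 3 of 3 libraries). With about 1598, 1973 and 2764 fragments behind these values, the counting error was 1.90% to 2.50%.

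Gjb6 encodes connexin 30, the other main connexin of grey matter astrocytes, whose expression starts after birth. It stood at 57.4, 39.8 and 57.3 FPKM in libraries 1, 2 and 3, a mean of 51.5 ± 10.1 FPKM. Libraries 1 and 3 were alike and library 2 was lower. The 95% counting interval of library 2, 35.5 to 44.5 FPKM, did not overlap those of library 1 (51.8 to 63.3 FPKM) and library 3 (52.9 to 61.9 FPKM). Gjb6 was 2.19 log2 units above the median gene (SE 0.138, limma adjusted p = 0.000721, 3 of 3 libraries).

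The lower value of Gjb6 in library 2 was not shared by Gja1, and of the 8 astrocyte markers only Aldh1l1, a folate enzyme gene, was lowest there. Gja1 was 2.57, 4.05 and 2.76 times Gjb6 in libraries 1, 2 and 3. Gja1 kept a near constant ratio to Slc1a3, the glial glutamate transporter gene, at 0.477, 0.490 and 0.475. Its ratio to Aqp4, the gene of the water channel of astrocyte endfeet, was 2.29, 2.44 and 2.39. The ratio of Gjb6 to Aqp4 was 0.893, 0.603 and 0.865. Slc1a3 and Aqp4 were among the steadier astrocyte markers. Slc1a2, Aldoc, S100b and Gfap varied more than Gja1, with an SD of 10.6% to 17.2% of the mean against 4.70%. Slc1a3, Aqp4, Aldh1l1 and Sox9 varied less (1.68% to 4.08%). Of the 8 astrocyte markers, 4 were highest in library 2. Their summed level was 1522, 1893 and 1792 FPKM, and none was at 0. What separated Gjb6 from these genes in library 2 was not tested.

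Gjb2 encodes connexin 26, found in the leptomeninges and in some astrocytes. It stood at 3.25, 3.54 and 3.44 FPKM, with a mean of 3.41 ± 0.147 FPKM. The 3 libraries lay within 1.09-fold of each other, although each rested on only 26 to 44 fragments. Gjb2 was called lower than the median gene, at -1.36 log2 units (SE 0.0877, limma adjusted p = 0.0111, lower in 3 of 3 libraries). The spread of Gjb2 between libraries was smaller than the counting error of each (15.1% to 19.6%), so this SE may be too small. Its chromosomal neighbour Gjb6 was 17.7, 11.2 and 16.7 times Gjb2 in FPKM, a mean ratio of 15.2 ± 3.44. The difference between the neighbours was -3.55 log2 units, Gjb2 minus Gjb6, and was beyond 2-fold also with the pair's own spread alone (adjusted p = 0.0185).

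The 6 meningeal markers, Dcn, Lum, Col1a1, Col1a2, Slc6a13 and Igf2, were all above 0 in every library, and summed to 106, 131 and 111 FPKM. Their median departure from each gene's own mean was -0.29, 0.17 and 0.05 log2 units in libraries 1, 2 and 3. Gjb2 was lowest in library 1 and highest in library 2 as well, but its counting intervals (2.12 to 4.76 FPKM in library 1 and 2.50 to 4.62 in library 3) overlapped throughout. The part of meningeal or choroid plexus tissue in the Gjb2 value was not tested.

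The oligodendrocyte connexin genes reported here lay under the median gene, beyond 2-fold only for Gjb1. Gjc3, which encodes connexin 29 of myelinating cells, stood at 4.74, 5.78 and 5.26 FPKM, a mean of 5.26 ± 0.520 FPKM. Gjb1, the X-linked gene of connexin 32, which is mutated in a hereditary neuropathy of peripheral myelin, was the lowest member at 1.29, 1.43 and 0.51 FPKM, a mean of 1.08 ± 0.496 FPKM. Library 3 was under the other libraries, but the values rested on about 6, 8 and 4 fragments and their counting intervals (0.473 to 2.81, 0.617 to 2.82 and 0.139 to 1.31 FPKM) overlapped, so a difference between libraries was not detectable at this depth. Gjb1 was called lower than the median gene, at -2.48 log2 units (SE 0.156, limma adjusted p = 0.000514, 3 of 3 libraries) and at -3.26 with a pseudocount of 0.1, and Gjc3 was not called at -0.86 log2 units (adjusted p = 1.0).

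Most oligodendrocyte markers were abundant, but not all of them. Of the 8, 6 were called higher than the median gene and 1, Opalin at a mean of 1.70 FPKM, lower. Mog, at 6.09 FPKM, was not called (26.0% and 22.3% of all genes were called higher and lower). Mbp, the myelin basic protein gene and the highest of the 8, was 142, 122 and 147 times Gjc3 in libraries 1, 2 and 3. The 8 oligodendrocyte markers summed to 1079, 1120 and 1229 FPKM, of which Mbp alone held 673, 704 and 771, and 6 of 8 were highest in library 3.

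Of the connexins of neurons, Gjd2 encodes connexin 36, the main protein of electrical synapses. It stood at 5.85, 6.89 and 5.05 FPKM, a mean of 5.93 ± 0.923 FPKM. Library 2 was highest and library 3 lowest, with overlapping counting intervals (5.43 to 8.62 FPKM in library 2 and up to 6.29 in library 3). The gene spans positions 114009601 to 114014378 of chromosome 2 on the minus strand, and is overlapped on the opposite strand by A530058N18Rik, which stood at 7.51, 11.3 and 5.95 FPKM and was also highest in library 2. Whether counting used strand is not given in the sources used here, so reads of this pair may not have been told apart.

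Gjc1 encodes connexin 45, described in neurons and in mural cells of vessels. It stood at 5.91, 5.13 and 4.09 FPKM, a mean of 5.04 ± 0.913 FPKM, and was highest in library 1 and lowest in library 3. The counting intervals of those libraries, 4.31 to 7.91 and 3.04 to 5.39 FPKM, overlapped. Gjd2 and Gjc1 were not called against the median gene, at -0.72 and -0.92 log2 units (limma adjusted p = 1.0 for both). The ratio of Gjd2 to Gjc1 was 0.990, 1.34 and 1.23.

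The interneuron markers Gad1 and Gad2, the genes of GABA synthesis, and Pvalb, the gene of fast-spiking interneurons that are coupled through Gjd2, were measured beside Gjd2. Gad1 stood at 51.6, 61.0 and 44.8 FPKM, in the same order of libraries as Gjd2. Pvalb was also highest in library 2, at 15.0, 22.4 and 17.7 FPKM, whereas Gad2 was lowest there, at 19.8, 14.0 and 15.1 FPKM. With 3 libraries, a correlation was not computed.

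The pannexins held 24.5% ± 1.48 of the family's summed FPKM. Panx2, whose product is abundant in brain and resides largely in intracellular membranes, stood at 54.6, 71.4 and 71.4 FPKM, a mean of 65.8 ± 9.72 FPKM. Library 1 was lower than the other libraries, and its counting interval of 50.4 to 59.0 FPKM did not reach theirs (66.9 to 76.1 and 67.6 to 75.3 FPKM). Panx2 was 2.55 log2 units above the median gene (SE 0.122, limma adjusted p = 0.000184, 3 of 3 libraries). The antisense gene 1810021B22Rik overlaps its span on the opposite strand, at 2.29, 1.93 and 0.43 FPKM.

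Panx1, whose product opens an ATP-permeable channel at the cell surface, ran in the other direction. It stood at 14.6, 8.55 and 10.6 FPKM, a mean of 11.2 ± 3.06 FPKM, with library 1 highest and library 2 lowest. The counting interval of library 1, 12.9 to 16.3 FPKM, did not overlap those of library 2 (7.39 to 9.84 FPKM) and library 3 (9.50 to 11.8 FPKM). Panx1 lay at 0.08 log2 units from the median gene and was not called, with values above that gene in 2 of 3 libraries, and the sign turned without replicate 1 (-0.10). As a ratio, Panx2 was 3.75, 8.35 and 6.74 times Panx1. That difference, -2.47 log2 units for Panx1 minus Panx2, had the same sign in 3 of 3 libraries. With Panx2 as the reference it was beyond 2-fold also with the pair's own spread alone (adjusted p = 0.0398). With Panx1 as the reference, 0 of 13336 genes were called beyond 2-fold with the own spread, so this call rests on the choice of reference.

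**Figure D2:**
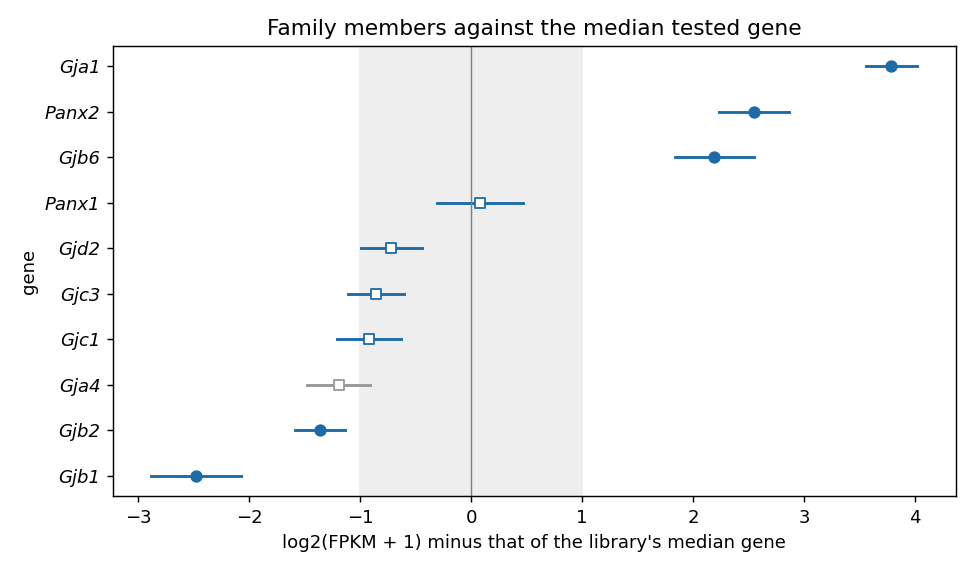
Difference in log2(FPKM + 1) from the median gene of the same library for the members (blue) and Gja4 (grey), with limma's 95% interval over 3 libraries. Filled circles were called beyond 2-fold (outside the shaded band), open squares were not. Gja1 lies at 3.79 and Gjb1 at -2.48.

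The order of the levels was Gja1, Panx2, Gjb6, Panx1, Gjd2, Gjc3, Gjc1, Gjb2, Gjb1. Against Gja1, all 8 other members were called lower by more than 2-fold (limma's treat test, adjusted over all genes), as were 88.3% of all genes (2.18% were higher), so this count does not set them apart. The largest distance was that of Gjb1 at -6.27 log2 units (SE 0.168; -7.16 with a pseudocount of 0.1) and the smallest that of Panx2 at -1.24 (SE 0.111, adjusted p = 0.0431). The 2-fold call of Panx2 was lost without replicate 1, 2 or 3 (adjusted p = 0.135, 0.0706 and 0.0726) and with its own spread alone (adjusted p = 0.0644), and that of Gjb6 (-1.60, SE 0.154, adjusted p = 0.00551) with its own spread alone (adjusted p = 0.0569). Both were still lower than Gja1 against a null of no difference with the own spread (adjusted p = 0.00608 for Panx2 and 0.0163 for Gjb6).

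Each of the 36 pairs of members was then compared, with the higher member as the reference of a limma fit over all genes. All differences to 1 reference gene share the spread of that gene, which made the moderated p-values too small where the reference itself varied. The pair's own spread over the 3 libraries, with 2 degrees of freedom, was therefore used beside it. Adjustment runs over all genes set against the reference, so the calls also depend on which member of a pair is the reference. With Panx1 as the reference, 0 of 13336 genes were called beyond 2-fold with the own spread. The 2-fold calls of Gja1, Panx2 and Gjb6 over Panx1 in that fit therefore rest on taking the higher member as reference. Of the 36 pairs, 31 differed in the moderated fit and 26 in both fits. Differences beyond 2-fold were called for 24 pairs in the moderated fit and 19 in both. Of all genes set against each of the 9 members, 86.2% differed and 58.6% did so beyond 2-fold in the moderated fit, and 70.9% and 47.4% with the own spread, so the counts of pairs lie near the background.

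**Figure D3:**
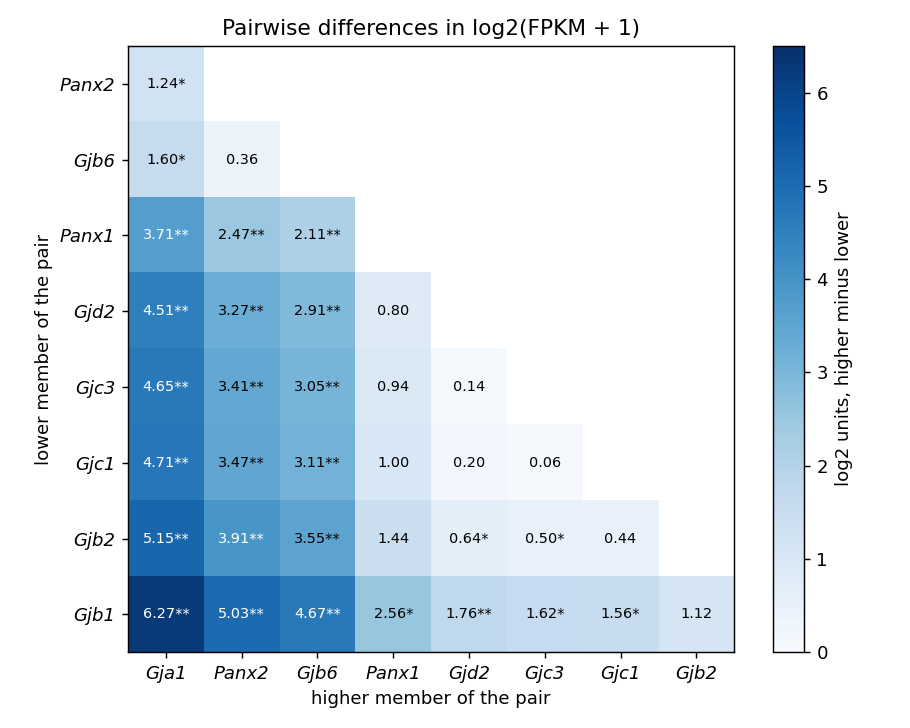
Differences in log2(FPKM + 1) between the higher member (columns) and the lower member (rows) of each of the 36 pairs, as means over 3 libraries. One star marks a pair that differed in both fits (26 pairs in all) and a pair of stars one that differed beyond 2-fold in both (19 pairs). Calls were made with the higher member as the reference.

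Among the 8 pairs of neighbours in that order, 4 differed in the moderated fit and 2 in both fits, Gja1 with Panx2 and Gjb6 with Panx1. Neighbours are close in level by the ordering itself. Their counts can therefore not be read against the shares over all genes (86.2% in the moderated fit and 70.9% with the own spread). Panx1 and Gjb6 were -2.11 log2 units apart, Panx1 minus Gjb6 (own-spread interval -2.64 to -1.58). The own-spread adjusted p beyond 2-fold was 0.0209 with Gjb6 as the reference. Panx2 and Gjb6 were not shown to differ: Gjb6 minus Panx2 was -0.36 log2 units (own-spread interval -1.48 to 0.76, moderated adjusted p = 0.139), and Gjb6 was the higher gene in library 1. The difference from Panx1 to Gjd2, -0.80 log2 units, passed in the moderated fit (adjusted p = 0.00696) but not with the own spread (adjusted p = 0.136; interval -1.97 to 0.37).

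Gjd2, Gjc3 and Gjc1 formed a step of close levels. Gjc3 minus Gjd2 was -0.14 log2 units (own-spread interval -0.55 to 0.27, moderated adjusted p = 0.558), and Gjc1 minus Gjc3 was -0.06 (interval -0.79 to 0.67, moderated adjusted p = 0.724), each with its sign in 2 of 3 libraries. Without replicate 3, the sign of the second difference turned (0.06). Gjb2 minus Gjc1 was -0.44 log2 units (own-spread interval -1.07 to 0.18, moderated adjusted p = 0.0673), and passed with a pseudocount of 0.1 (adjusted p = 0.0402) and without replicate 3 (adjusted p = 0.0232). Gjb1 minus Gjb2 was -1.12 log2 units, with an adjusted p of 0.00124 in the moderated fit and 0.0517 with the own spread (interval -2.06 to -0.17).

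The members did not share 1 pattern over the libraries. Of the 9, 6 were highest in library 2 and 3 in library 1, with none highest in library 3. The share of all genes highest in each library was not computed, so these counts are not read as a trait of the members. For Gja1, Gjb2, Gjb1, Gjc3, Gjc1 and Gjd2 the counting intervals of all libraries overlapped, so their highest library is not resolved. The intervals of Gjb6 in libraries 1 and 3 and of Panx2 in libraries 2 and 3 overlapped as well. Only for Panx1 was the highest library resolved by counting. Gja1 and Gjb2 varied least, with an SD of log2(FPKM + 1) of 0.07 and 0.05, under which lay 11.7% and 6.02% of all tested genes. For Gjb2 the counting error of a library was 15.1% to 19.6%, above its SD of 4.32% of the mean. Its small spread therefore does not show a steady level. Gjb1 varied most at 0.37 (85.2% of tested genes were lower), followed by Panx1 at 0.35 (83.5%) and Gjb6 at 0.30 (76.8%). For Panx1 and Gjb6 the libraries differed by more than the counting intervals, and for Gjb1 they did not.

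**Figure D4:**
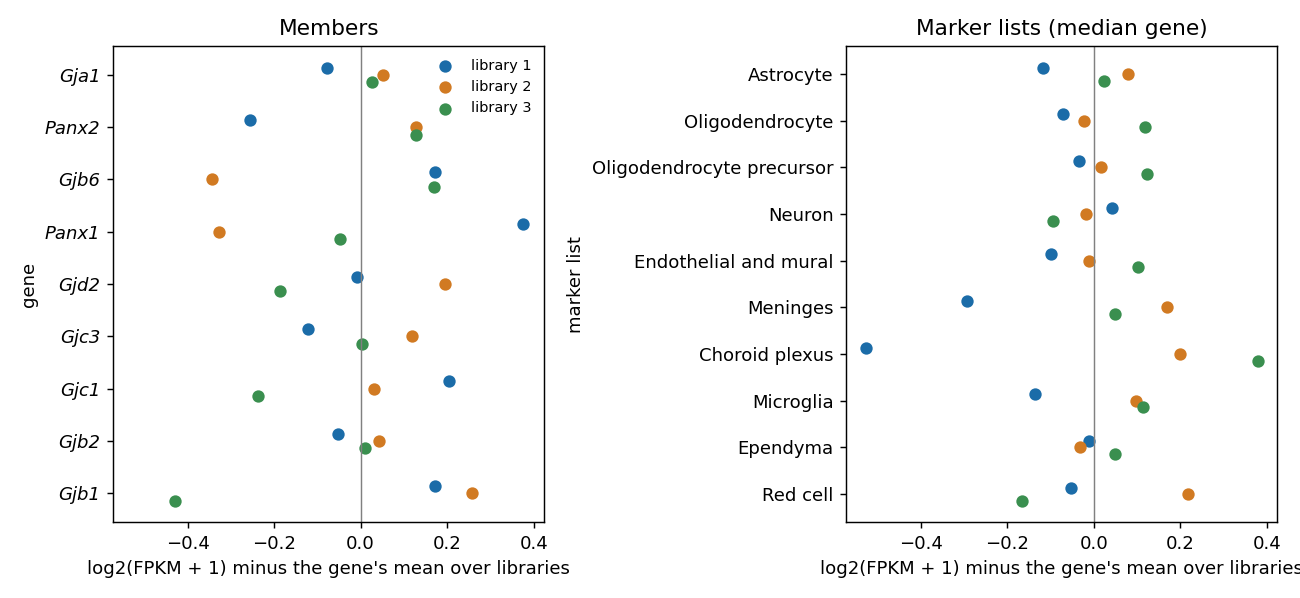
Departure of log2(FPKM + 1) from the gene's own mean over the 3 libraries, for each member (left) and as the median gene of each marker list (right), with points coloured by library and set slightly apart in height. Gjb6 is low in library 2, Panx1 is high and Panx2 low in library 1, and the choroid plexus list runs from -0.53 in library 1 to 0.38 in library 3.

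Choroid plexus markers moved between the libraries more than those of any other list shown. All 5 were lowest in library 1, and Ttr, the transthyretin gene, stood at 392, 1071 and 1296 FPKM. Of the members, 4 (Gja1, Gjb2, Gjc3 and Panx2) were also lowest in library 1, against 2 in library 2 and 3 in library 3. Only for Panx2 did the counting interval of library 1 lie apart from those of the other libraries. The share of all genes lowest in library 1 was not computed. The part of choroid plexus tissue in these values was not tested. Without library 1, Gja1, Gjb6 and Panx2 were again called higher than the median gene, and Gjb2 and Gjb1 lower.

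The other genes of the family reported here were low or listed at 0. Gja4, which encodes connexin 37 of arterial endothelium, stood at 3.77, 3.49 and 4.70 FPKM and was not called against the median gene (-1.19 log2 units, limma adjusted p = 0.137). Gjd3 stood at 0.47, 0.82 and 1.16 FPKM, Gja3, known from the lens, at 0.43, 0.28 and 0.67, and Gja5, which encodes connexin 40 of arteries, at 0.19, 0.50 and 0.53. Gja6 was listed at 0, 0 and 0.29 FPKM and Gjb5 at 0, 0 and 0.11. Gja10, Gjd4, Gje1 and Panx3 were listed at 0 in all 3 libraries. Genes under 1 FPKM had few fragments each, which does not resolve their order.

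The genes listed as partners of gap junctions were more abundant. Of 13 genes for scaffolds, adhesion partners, regulators and membrane proteins of astrocyte endfeet, 8 were called higher than the median gene, 0 lower, and 5 were not called. Their median was 1.43 log2 units (26.0% and 22.3% were called over all genes, and the members' median was -0.72). The endfoot genes Mlc1 and Aqp4 were among the 8, and Aqp4 was also counted as an astrocyte marker. Led by the adherens junction gene Ctnnb1 at 372 ± 3.00 FPKM, the highest were the drebrin gene Dbn1 at 136 ± 9.53, Mlc1, a membrane protein gene of astrocyte endfeet, at 132 ± 10.8, and the ubiquitin ligase gene Nedd4 at 76.2 ± 1.12 FPKM. Tjp1, which encodes the scaffold ZO-1 that binds connexin 43, stood at 17.4, 12.2 and 12.9 FPKM and was not called. Tjp1 was named after its values were seen.

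Other large-pore channels and the purinergic genes that act on released ATP were mostly at or under the median gene. Of 22 genes, 15 reached a mean of 1 FPKM, of which 2 were called higher and 6 lower, with a median of -1.19 log2 units. Over all genes, 26.0% were called higher and 22.3% lower. The higher ones were Adora1, the adenosine A1 receptor gene, at 57.8 ± 1.21 FPKM, and P2ry12, the ADP receptor gene of microglia, at 38.5 ± 4.79 FPKM. Next came the ectonucleotidase gene Entpd2 at 16.7 ± 2.51 and Lrrc8b, a subunit gene of the volume-regulated anion channel, at 16.5 ± 2.00 FPKM. They lay above the median gene, by 0.63 and 0.62 log2 units, but neither was called beyond 2-fold. The P2X7 receptor gene P2rx7, often studied with Panx1, was lower than the median gene at 2.95, 2.27 and 3.02 FPKM (-1.60 log2 units); it was named after its values were seen. Under 1 FPKM on average were P2ry1 at 1.07, 0.82 and 0.69, P2ry2 at 1.00, 0.43 and 0.48, Slc17a9, the vesicular nucleotide transporter gene, at 0, 0.12 and 0.17, and Calhm6 at 0, 0 and 0.40 FPKM. Calhm1, Calhm4 and Lrrc8e were listed at 0 in all libraries.

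Genes with the most similar values over the 3 libraries were found by their distance in log2(FPKM + 1). For Gja1 these were Atp6v1g1, Kif1a and Rps20, at distances of 0.04, 0.06 and 0.06. For Gjb6 they were Ppp1r11, Adrm1 and Slc25a12 (0.14, 0.17 and 0.17), with Ppp1r11 at 61.3, 37.0 and 57.9 FPKM. For Panx2 they were Mtln, Stk16 and Rgs5 (0.06, 0.09 and 0.10), and for Panx1 Usp3, Ajap1 and Galnt17 (0.07, 0.09 and 0.10). The nearest genes were Fyco1 for Gjb2, Il4ra for Gjb1, Ints4 for Gjc3 and Tfr2 for Gjd2, at distances of 0.05 to 0.07. Over 3 libraries this measure reflects mainly a shared level, since 13336 genes were searched for each member.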

How the data were processed

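Whole hippocampus RNA of 1 group of 3 libraries was sequenced as paired reads of 150 bases, per the labels' protocols. The authors deposited FPKM per gene, per the file headers. Each column carries the number of 1 sample title, which gave its sample. Bowtie2 and GRCm38 (mm10) are named in the submitters' processing notes. How genes were counted, with which annotation and versions, and whether with strand, is not given in the sources used here. FPKM were used as deposited.

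Genes with a mean of at least 1 FPKM (13337) were compared as log2(FPKM + 1), which understates differences of low genes, with limma 3.58.1 in R 4.3.3 (treat, null of at most 1 log2 unit) and Benjamini-Hochberg adjustment, calls at adjusted p under 0.05. With 3 libraries the smallest p of an exact sign-flip test is 0.25. The moderated fits against the median gene and Gja1 were also run on simulated data. There most genes stood at the level of the reference, unlike in these libraries, so that run does not test the adjusted p-values given here. The own-spread fit, the same linear model without moderation and adjusted over all genes alike, was chosen after seeing the data. Depth was estimated from genes with 1 transcript of at least 800 bases (GENCODE M21): 91.2% to 92.3% of low values lay within 0.15 of whole fragments after fitting, on the same values. Fragments per gene use the longest coding transcript. Intervals are exact Poisson (95%) and cover counting error only.

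The members and lists were chosen with earlier results of these data known. All members and the other family genes are named (some genes are not reported here), for the 2 pathway lists the 4 highest and those under 1 FPKM, and for likeness the nearest 3 genes by Euclidean distance. Other steps used Python 3.11.15 (pandas 2.3.3, numpy 2.4.6, matplotlib 3.10.9, scipy 1.17.1).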

Additional observations from a re-analysis of the deposited data

How the results depend on the processing

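Alternatives were a pseudocount of 0.1, no filter on the mean, a null of no difference, leaving out each replicate and, chosen after seeing the data, each gene's own spread only. Each member's share of the family moved by less than 1 SD when the sum was taken over the 9 members only. Leaving out 1 of 3 libraries cannot move a mean by 1 SD of the same libraries, so that alternative does not test the shares. With a null of no difference, 5 members were lower than the median gene, as Gjc1, Gjc3 and Gjd2 passed, and over all genes 5757 were higher and 5739 lower, while 542 genes were higher than Gja1. Without the filter 8769 genes were lower than the median gene, and with the own spread only 1680. With a pseudocount of 0.1, Gjb1 moved by over 1.5 times against the median gene (-3.26 log2 units) and against every other member except Gjb2, with the same calls. Panx1 lay between -0.10 and 0.24 log2 units from the median gene, and Gjc1 between -0.22 and 0.061 from Gjc3, when 1 replicate was left out. Single calls lost or gained among the pairs and against Gja1 stand beside those results; further pairs lost were Gjc1 with Panx1 (adjusted p = 0.0523) and Gjb2 with Gjc3 (adjusted p = 0.0754) without replicate 3, and Panx1 with Gjc3, Gjc1 and Gjb2 with the own spread (adjusted p = 0.111, 0.0618 and 0.0556). In the moderated fit, Gjb6 and Panx2 differed without replicate 1 (adjusted p = 0.0284), and Gjd2 and Panx1 no longer did without replicate 3 (adjusted p = 0.123). Moderated p-values are too small where the reference varies, and the own spread was not run with a replicate left out. The cause of these changes was not tested. No paired analysis was possible because there is 1 group. Depth limits Gjb1 and all family genes under 1 FPKM, and the intervals of Gjb2, Gjc1, Gjc3 and Gjd2, at 26 to 118 fragments, do not resolve differences between libraries.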
